A study of Mus musculus with 6 samples.

Results

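The 10 genes described here are pluripotency genes of fetal germ cells: Pou5f1, Nanog, Sox2, Dppa2, Dppa3, Dppa4, Dppa5a, Utf1, Lin28a and Zfp42. They were listed by name and matched by Ensembl identifier, which found 10 of the 48709 counted genes, and all 10 passed the filter on low counts. RNA came from the ovaries of wild-type CD1 mouse embryos collected at 13.5 days post coitum (dpc). Pregnant females were gavaged 4 times a day, every 3 h, from 10.5 to 13.5 dpc. Those of the control group received ethanol, and those of the APAP+IBU group received acetaminophen (APAP, 30 mg/kg per day) alternating with ibuprofen (IBU, 15 mg/kg per day). The drug stocks were made in ethanol, so both groups received this solvent. Each group had 3 libraries of polyadenylated RNA, and each library came from its own pool of gonads, so embryos within a pool were not separated. The titles of the exposed samples name ibuprofen alone, while their exposure label names both drugs.

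Pluripotency genes encode the transcription factors, chromatin proteins and RNA-binding proteins that keep early embryonic cells and embryonic stem cells able to form all lineages. Primordial germ cells also express many of them when they settle in the gonad. In the fetal ovary, germ cells switch these genes off as retinoic acid and Stra8 bring them into meiosis, and in the fetal testis they switch them off later, without meiosis. At 13.5 dpc a mouse ovary holds germ cells at the start of this switch among supporting, stromal, endothelial and blood cells. A level measured in whole ovary therefore depends on the number of germ cells, their stage and the RNA in each cell, and fewer germ cells and less RNA per germ cell cannot be told apart here.

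The libraries held 37811968 to 48954631 counts. Levels are CPM, counts scaled to a common library size, with TMM normalisation, which balances the bulk of the genes between libraries. All 14 counted germ cell markers exceeded 1 CPM in every library, and their summed level was 1220 to 1570 CPM in controls and 1430 to 1610 CPM in exposed ovaries. Of the 12 ovarian somatic markers, 11 exceeded 1 CPM in every library, and the exception, Foxl2, ranged from 0.944 to 8.16 CPM. The summed level of 20 liver genes was 2410 and 3820 CPM in the replicate 3 libraries of the control and exposed groups, against 214 to 610 CPM in the other 4, and the liver gene Afp showed the same split, with 889 and 1280 CPM against 125 to 365 CPM. Erythroid genes, 13 counted, summed to 7070 to 17300 CPM in controls and 3190 to 10300 CPM in exposed ovaries. Of 16 spermatid genes, none of which was at 0 in all libraries, 15 were tested and all 15 had a negative fold change. Their summed level was 57.3 to 176 CPM in controls and 9.28 to 14.1 CPM in exposed ovaries, and control replicate 1 held the 176. Smcp, a sperm mitochondrial gene among them, was one of the genes at the smallest adjusted p, 0.0906 in edgeR's test. The call of Smcp depended on the method, with an adjusted p of 6.91e-14 in DESeq2 without shrinkage. In edgeR it was 0.008 with no filter on low counts and 0.0809 to 0.0929 with other scalings. The part of the liver, erythroid and spermatid RNA in the results below was not tested.

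The pluripotency genes were on average lower in APAP+IBU ovaries, but the groups overlapped for each of them. Over all 6 libraries, 9 of the 10 genes had a negative log2 fold change (50.6% of the 20167 tested genes did), and Zfp42 was the exception. Their median log2 fold change was -0.44, beside -0.0047 for all tested genes. In the quasi-likelihood test of edgeR, adjusted over all genes by Benjamini-Hochberg, p stayed above 0.05 for every pluripotency gene, and 0% of all tested genes were called. DESeq2 without shrinkage called 235 genes, none of them among the 10. Unadjusted p-values under 0.05 were found for 2 of the 10, Dppa3 and Lin28a, and for 6.22% of all tested genes. Complete separation of the groups with exposed ovaries lower was found for 0 of the 10 and for 5.92% of all tested genes.

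Leaving out one library moved the median of the 10 to between -0.88, without APAP+IBU replicate 3, and -0.26, without APAP+IBU replicate 1. Without control replicate 1 it was -0.27, with 7 of the 10 negative.

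Libraries of the same group differed widely. Control replicate 1 was the highest of the 6 libraries for 7 of the 10 genes. APAP+IBU replicate 1 was the lowest for 8, and APAP+IBU replicate 2 for the other 2. Both of these exposed libraries lay below all 3 controls for 7 genes. APAP+IBU replicate 3 was among the 3 highest libraries for all 10 genes, and was above the mean of the controls for 7. The summed level of the 10 genes ran 606, 405 and 455 CPM across control replicates 1, 2 and 3, against 290, 315 and 473 CPM in APAP+IBU replicates 1, 2 and 3.

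**Figure D1:**
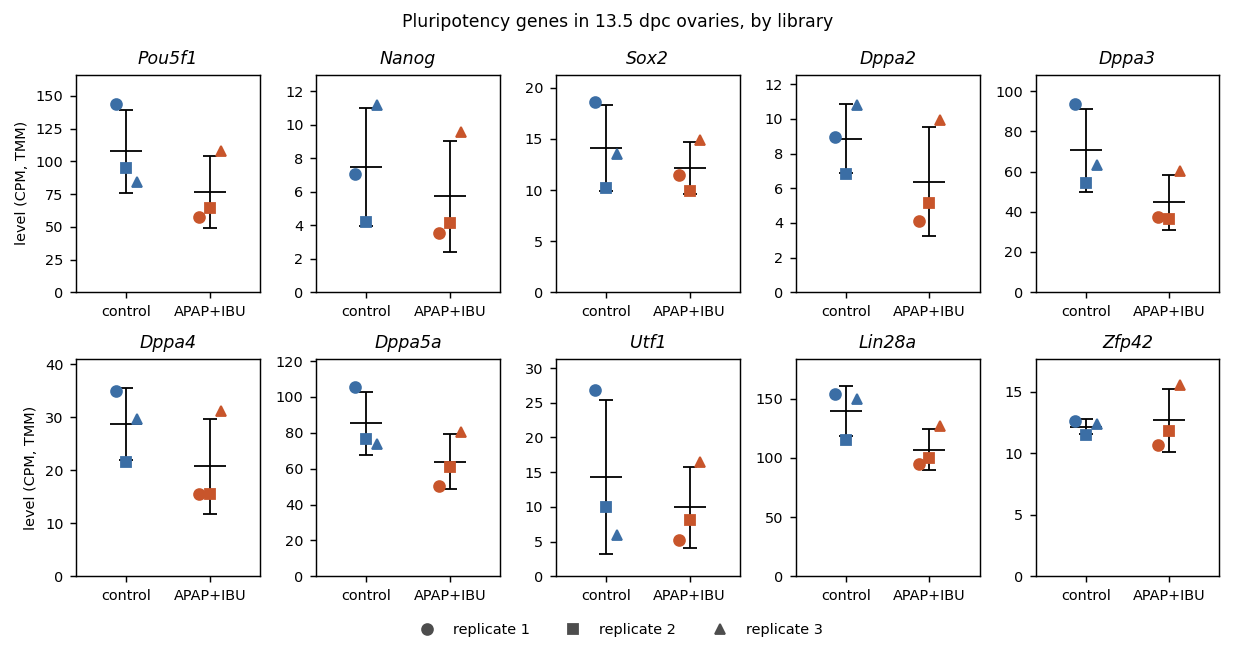
Level of each of the 10 pluripotency genes (vertical axes, CPM with TMM, starting at 0) in the 3 control libraries (blue) and the 3 APAP+IBU libraries (orange). Marker shapes give the replicate number, horizontal bars the mean and whiskers the SD (n = 3). The triangle of APAP+IBU replicate 3 is the highest exposed point in every panel.

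A fit to replicates 1 and 2 alone, the 4 libraries low in liver RNA, was chosen with earlier results of these data known. It leaves out both replicate 3 libraries, and APAP+IBU replicate 3 was the highest exposed library for all 10 genes. Its p-values therefore describe this subset and are no separate support. In this fit all 10 genes had a negative log2 fold change, with a median of -0.73 beside -0.0032 for all genes. There, the same test and threshold called 7 of the 10 lower, beside 12.9% of all 20633 tested genes lower and 14.2% higher. The 7 genes were Pou5f1, Dppa2, Dppa3, Dppa4, Dppa5a, Utf1 and Lin28a. For 8 of the 10, both exposed libraries were below both controls, a pattern shown by 34% of all tested genes. After a correction of each of these 4 libraries for gene length and GC content, 9 of the 10 were still negative, and the calls were kept by Pou5f1 (log2 fold change -0.49, edgeR adjusted p = 0.0458) and Dppa3 (-0.77, adjusted p = 0.0431). The corrected median of the 10 was -0.48. In this corrected fit 2866 of all 20633 tested genes were called, 1196 of them higher. The other 5 of the 7 had adjusted p of 0.0588 to 0.239 there, with values of -0.79 for Dppa2 and -0.41 for Lin28a, close to those without the correction, and smaller ones of -0.58 for Dppa4, -0.30 for Dppa5a and -0.56 for Utf1. Without the correction, the fit to these 4 libraries also called 14 of 15 spermatid genes and 6 of 13 erythroid genes lower, and with it 13 and 0. When APAP+IBU replicate 3 alone was left out, all 10 genes were negative. There, 0 of the 10 were called, as were 0 of all 20973 tested genes. Between the replicate 3 libraries the order differed, with 4 of the 10 genes lower in the exposed ovary than in the control. This difference between the replicates has no test, since each group has 1 such library.

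**Figure D2:**
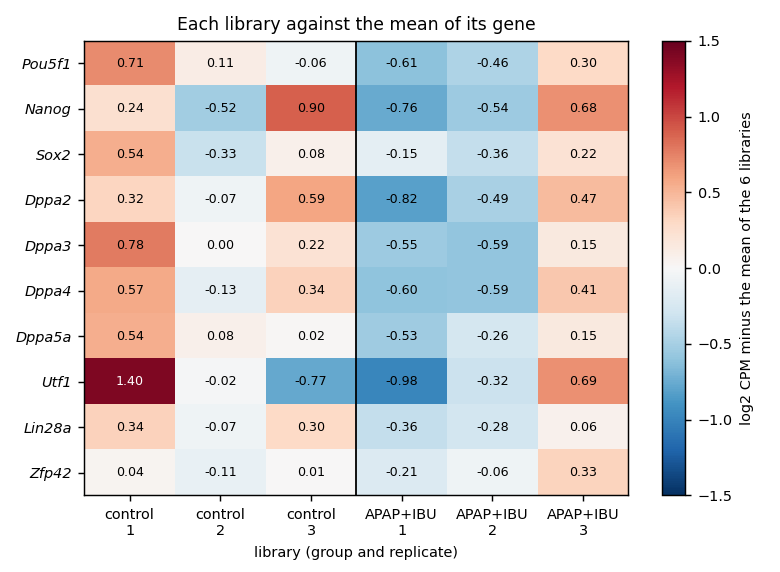
Log2 CPM of each gene (rows) in each library (columns, controls left of the line), given as the difference from that gene's mean over the 6 libraries (red above, blue below). Columns APAP+IBU 1 and APAP+IBU 2 are negative for all 10 genes, while APAP+IBU 3 is positive for all 10.

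Pou5f1 (ENSMUSG00000024406, GRCm38 chr17:35506018-35510772, plus strand) encodes OCT4, the POU-domain factor at the centre of the pluripotency network, which germ cells need for survival. Values are given for replicates 1, 2 and 3 in that order, and SE is the standard error. Its level was 144, 94.8 and 84.5 CPM in the controls and 57.5, 64.0 and 108 CPM in the exposed libraries. APAP+IBU replicates 1 and 2 lay below every control, whereas APAP+IBU replicate 3 lay above control replicates 2 and 3. The exposed mean was 71.1% of the control mean, at 76.5 ± 27.5 CPM against 108 ± 31.7 CPM (SD, n = 3). Over the 6 libraries its log2 fold change was -0.49 (SE 0.28, 95% interval -1.15 to 0.16, edgeR adjusted p = 0.692). With replicates 1 and 2 it was -0.95 (SE 0.18, edgeR adjusted p = 0.0121).

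Nanog (ENSMUSG00000012396, chr6:122707489-122714633, plus strand) encodes a homeobox factor that stabilises the pluripotent state. It had 7.08, 4.18 and 11.2 CPM in the controls and 3.53, 4.11 and 9.55 CPM in the exposed libraries. The highest library of each group was replicate 3, and control replicate 2 was close to the 2 low exposed libraries. Its log2 fold change was -0.39 (SE 0.47, 95% interval -1.46 to 0.69, edgeR adjusted p = 0.784), an interval that covers a fall of over 1 log2 unit as well as a rise. In replicates 1 and 2 Nanog had -0.54 (SE 0.29, edgeR adjusted p = 0.208) and was not called.

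Sox2 (ENSMUSG00000074637, chr3:34650405-34652461, plus strand) encodes the HMG-box partner of OCT4, and also serves neural progenitors and glia. The control libraries 1, 2 and 3 held 18.6, 10.2 and 13.5 CPM, and the exposed libraries held 11.5, 9.94 and 14.9 CPM. The groups overlapped over nearly their whole range, with a log2 fold change of -0.22 (SE 0.26, edgeR adjusted p = 0.781). The summed level of 13 neural and glial genes was 57.3 to 69.9 CPM in controls and 58.5 to 67.5 CPM in exposed ovaries, and the glial factor Sox10 was at 0.507 to 1.79 CPM. Sox2 lies inside the long noncoding gene Sox2ot on the same strand, which held 442 counts in all libraries against 3289 for Sox2.

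Zfp42 (ENSMUSG00000051176, chr8:43295063-43306980, minus strand) encodes REX1, a zinc finger protein widely used as a marker of naive stem cells. It had 12.6, 11.4 and 12.4 CPM in the controls and 10.7, 11.8 and 15.5 CPM in the exposed libraries. It had the smallest spread of the 10 genes among controls, a coefficient of variation of 5.14%, and APAP+IBU replicate 3 exceeded every control. The log2 fold change was 0.059 (SE 0.19, 95% interval -0.38 to 0.50, edgeR adjusted p = 0.920). Replicates 1 and 2 gave -0.079 (SE 0.16, adjusted p = 0.742), so Zfp42 was not called in either fit.

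These 4 transcription factors act through short DNA motifs, and several of the genes carry such motifs in their own promoters. RefSeq windows of 250 bases before to 50 bases after the start site (GRCm38.p6) were given for 6 of the 10 genes, 8 windows in all. Dppa2, Dppa3, Dppa4 and Dppa5a had no entry. Exact matches were sought on both strands for the octamer ATTTGCAT bound by OCT4, its core TTTGCAT, the SOX site ACAATG, the GC box GGGCGG bound by SP1, and AGGTCA, the core bound by nuclear receptors such as retinoic acid receptors. The octamer contains its core, so each octamer counts under both. Of all 32851 windows of this length, 1.74% held the octamer, 4.63% its core, 12.6% the SOX site, 35.7% the GC box and 16.3% the nuclear receptor core. Among the 8 windows these numbers were 1, 4, 4, 5 and 3, but the windows of one gene overlap or share the gene. The promoters of Nanog (chr6:122707239-122707538, plus strand), Zfp42 (chr8:43306960-43307259, minus strand) and Pou5f1 (chr17:35505782-35506081, plus strand) are shown 5′ to 3′, because between them they hold all 5 motifs beside the values of 3 of the 4 factors. Capitals mark the matches, read on either strand.
Nanog: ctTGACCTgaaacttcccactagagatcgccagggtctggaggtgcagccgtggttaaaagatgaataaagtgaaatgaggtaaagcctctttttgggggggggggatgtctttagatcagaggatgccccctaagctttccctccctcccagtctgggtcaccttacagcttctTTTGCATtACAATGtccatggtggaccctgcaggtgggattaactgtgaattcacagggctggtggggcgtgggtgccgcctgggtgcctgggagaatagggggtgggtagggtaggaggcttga
Zfp42: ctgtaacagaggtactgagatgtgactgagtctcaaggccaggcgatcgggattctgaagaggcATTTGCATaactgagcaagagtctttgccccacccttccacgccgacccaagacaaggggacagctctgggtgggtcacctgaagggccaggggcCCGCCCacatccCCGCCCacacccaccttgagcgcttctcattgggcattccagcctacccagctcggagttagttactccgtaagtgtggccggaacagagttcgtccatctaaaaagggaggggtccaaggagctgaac
Pou5f1: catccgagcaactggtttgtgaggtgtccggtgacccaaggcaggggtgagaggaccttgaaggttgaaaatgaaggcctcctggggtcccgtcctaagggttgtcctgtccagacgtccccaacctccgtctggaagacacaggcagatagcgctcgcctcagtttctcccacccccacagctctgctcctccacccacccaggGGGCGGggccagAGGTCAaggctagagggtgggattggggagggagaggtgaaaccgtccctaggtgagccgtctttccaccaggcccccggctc
In the Nanog window an octamer core starting at -75 is followed after 1 base by a SOX site starting at -67, counted from the start site. In the Zfp42 window the full octamer starts at -186, and 2 GC boxes on the other strand start at -91 and -79. In the Pou5f1 window a GC box at -45 is followed by a nuclear receptor core at -33. A match describes letters and is no evidence of binding in these cells.

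Among the chromatin proteins, Dppa3 (ENSMUSG00000046323, chr6:122626410-122630272, plus strand), also called Stella, protects DNA methylation in the early embryo and marks primordial germ cells. Its level was 93.5, 54.5 and 63.5 CPM in the controls and 37.2, 36.3 and 60.4 CPM in the exposed libraries. The 2 low exposed libraries were below every control, and the third lay between control replicates 2 and 3. Dppa3 had the most negative fold change of the 10 over 6 libraries, at -0.66 (SE 0.26, 95% interval -1.27 to -0.054, unadjusted p = 0.0363 and edgeR adjusted p = 0.692). An exact two-sided permutation test over the libraries gave p = 0.2, where 3 against 3 cannot go below 0.1. In replicates 1 and 2 Dppa3 was called lower, with -0.99 (SE 0.23, edgeR adjusted p = 0.0197). Nanog lies 77217 bases beyond its end on the same strand, and the exposed mean was 63.3% of control for Dppa3 and 76.6% for Nanog.

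Dppa2 and Dppa4 encode SAP-domain proteins that bind each other and keep bivalent promoters open. Their genes lie 9671 bases apart on chromosome 16, with Dppa4 (ENSMUSG00000058550) at 48283733 to 48294237 and Dppa2 (ENSMUSG00000072419) at 48303908 to 48319723. Dppa4 had 34.9, 21.5 and 29.7 CPM in the controls and 15.5, 15.6 and 31.1 CPM in the exposed libraries. For Dppa2 the controls had 8.97, 6.83 and 10.8 CPM and the exposed libraries 4.08, 5.13 and 9.94 CPM. In both genes APAP+IBU replicates 1 and 2 lay below all controls, and APAP+IBU replicate 3 lay between the 2 highest controls. Their log2 fold changes were alike, -0.47 (SE 0.31) for Dppa4 and -0.48 (SE 0.35) for Dppa2, with adjusted p of 0.699 and 0.700 in edgeR's test. Both were called lower in replicates 1 and 2, Dppa4 with -0.84 (SE 0.22, adjusted p = 0.0305) and Dppa2 with -0.76 (SE 0.23, adjusted p = 0.0479).

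Utf1 (ENSMUSG00000047751, chr7:139943789-139945112, plus strand) encodes a chromatin-associated factor of stem cells and of spermatogonia. It was the most uneven of the 10 genes, with 26.8, 10.01 and 5.97 CPM in the controls and 5.17, 8.17 and 16.5 CPM in the exposed libraries. The coefficient of variation among controls was 77.5%, and replicate 3 stood in the opposite order to replicate 1. Its log2 fold change was -0.53 over the 6 libraries (SE 0.59, 95% interval -1.89 to 0.84, edgeR adjusted p = 0.772) and -1.45 in replicates 1 and 2 (SE 0.44, adjusted p = 0.0472). With a length and GC correction of all 6 libraries it was -0.069. Without control replicate 1, the library with the most spermatid RNA, the log2 fold change of Utf1 was 0.31. Utf1 had the highest GC content of the 10 transcripts, 63.5%, and after the length and GC correction its value in replicates 1 and 2 was -0.56 (adjusted p = 0.239), so the call was lost. Its promoter (chr7:139943606-139943905, plus strand, 62.0% GC) is printed because it held 4 GC boxes, in capitals, with 2 of them overlapping, and no octamer core or SOX site.
Utf1: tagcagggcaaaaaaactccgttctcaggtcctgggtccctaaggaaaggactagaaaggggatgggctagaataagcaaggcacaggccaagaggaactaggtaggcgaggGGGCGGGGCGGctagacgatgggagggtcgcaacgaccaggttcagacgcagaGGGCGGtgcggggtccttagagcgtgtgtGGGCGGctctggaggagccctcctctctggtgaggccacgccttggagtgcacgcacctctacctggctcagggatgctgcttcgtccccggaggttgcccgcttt

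Lin28a and Dppa5a encode RNA-binding proteins. LIN28A blocks the maturation of let-7 microRNAs, and DPPA5A carries a KH domain. Lin28a (ENSMUSG00000050966, chr4:134003330-134018841, minus strand) had 154, 115 and 150 CPM in the controls and 94.5, 99.7 and 127 CPM in the exposed libraries. Only APAP+IBU replicate 3 reached into the control range, above control replicate 2. Its log2 fold change was -0.38 (SE 0.17, 95% interval -0.77 to -0.0012, unadjusted p = 0.0495 and edgeR adjusted p = 0.692), with an exact two-sided permutation p of 0.2. In replicates 1 and 2 Lin28a was called lower with a similar value, -0.45 (SE 0.14, adjusted p = 0.0488). Dppa5a (ENSMUSG00000060461, chr9:78367052-78368177, minus strand) had 106, 76.5 and 73.8 CPM in controls and 50.3, 60.7 and 80.7 CPM in exposed ovaries. The third exposed library was above 2 of the 3 controls. The log2 fold change of Dppa5a was -0.42 (SE 0.21, edgeR adjusted p = 0.692) over 6 libraries and -0.70 (SE 0.16, adjusted p = 0.0215) in replicates 1 and 2, and with the length and GC correction it was -0.19 and -0.30.

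**Figure D3:**
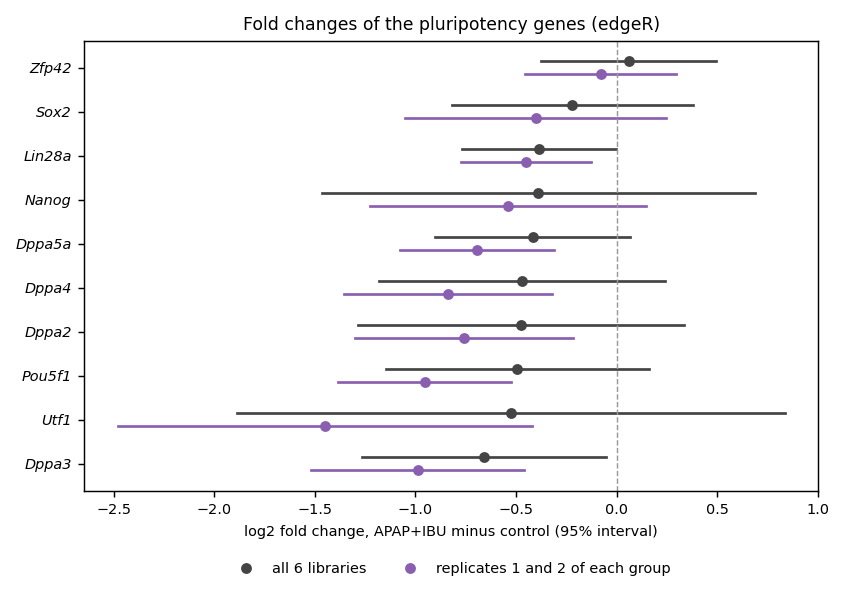
Log2 fold change of APAP+IBU minus control (horizontal axis) with its 95% interval for each gene, from edgeR fits to all 6 libraries (dark grey) and to replicates 1 and 2 of each group (purple), ordered by the fit to 6. Dark grey intervals exclude 0 for Dppa3 and Lin28a only, before adjustment, and purple ones for 7 genes.

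Several of these genes have near-identical copies in the genome, and reads shared with a copy could have been assigned differently. At 95% identity or more over at least 100 aligned bases, Dppa5a matched 6 annotated pseudogenes, of which 4 were in the count table and held 108 counts together, 0.583% of its own 18515. The protein-coding Pigp transcripts also shared 417 bases with Dppa5a and held 11888 counts, so reads from that stretch are uncertain for Dppa5a. Dppa2 matched 2 processed pseudogenes over 906 bases, with 55 counts (2.91% of its own). Dppa4 matched 2 over 532 bases, with 149 counts (2.44%). For Dppa3, 2 pseudogenes held 284 counts (2%), all of them in Dppa3-ps. Nanog shared a stretch of 106 to 245 bases with 61 other genes, protein-coding ones such as Snf8 and Nasp among them. Reads of Nanog there could be ambiguous, but a shared stretch does not make the other gene a copy of Nanog. Among the 61, 3 annotated pseudogenes held 112 counts (6.81% of the 1645 of Nanog). Nanog-ps1 held 0 of them, while Gm15645 held 94 and Gm9894 held 18, with matches of 136 and 189 bases. Sox2 and Utf1 had no such match. Pou5f1 overlaps the antisense gene Gm19553, which held 54 counts in all, and Lin28a overlaps Gm13061 on the other strand, with 14 counts. The libraries were stranded, but the strand setting of the counting is not given in the sources used here.

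Per length of exon, the order of the genes was the same in both groups except that Sox2 and Zfp42 changed places. In controls Dppa5a was highest, at 138 ± 28.4 CPM per kb (SD, n = 3), and it was above Dppa3, at 79.0 ± 22.9, in every library. Pou5f1 followed at 47.9 ± 14.1 and Lin28a at 34.9 ± 5.29 CPM per kb, and the control values of Dppa3, Pou5f1 and Lin28a overlapped from each to the next. Dppa4 had 17.3 ± 4.06 CPM per kb, clear of Lin28a. The control values of Dppa4, Utf1 (11.6 ± 9.02), Sox2 (6.86 ± 2.05) and Zfp42 (6.45 ± 0.332) overlapped from each to the next. Dppa2 at 3.62 ± 0.808 and Nanog at 3.34 ± 1.57 CPM per kb were lowest, overlapped with each other, and Dppa2 lay below Zfp42 in all controls. In exposed ovaries the range was from 103 ± 25.0 CPM per kb for Dppa5a to 2.56 ± 1.48 for Nanog. Every control value of Dppa3, Pou5f1 and Lin28a was above every control value of Sox2 and Nanog on this scale.

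To set the genes against others of the same cells, each was divided by the geometric mean of Ddx4, Dnd1, Mael, Piwil2 and Tdrd5 in its library, 5 germ cell genes for RNA regulation and transposon defence. The summed level of these 5 was 448 to 552 CPM in controls and 496 to 545 CPM in exposed ovaries, and none of the 5 was called over 6 libraries. The divisor follows their mean log2 CPM instead, which was 6.39, 5.97 and 6.14 in controls and 5.9, 6.04 and 6.2 in exposed ovaries. Dnd1, which weighs as much in it as each other gene, had 35.7, 17.5 and 15.5 CPM in controls and 11.6, 13.4 and 29.3 CPM in exposed ovaries. Relative to them, 9 of the 10 pluripotency genes were lower on average in exposed ovaries, with a median difference of -0.30 on the log2 scale. For Dppa3 and Lin28a all exposed values then lay under all control values, 2 of 10 genes, beside 2.82% of all tested genes. The log2 ratio of Dppa3 was 0.16, -0.20 and -0.15 in controls and -0.68, -0.85 and -0.29 in exposed ovaries. That of Lin28a was 0.88, 0.88 and 1.09 in controls and 0.66, 0.61 and 0.78 after exposure. Each gave p = 0.1 in an exact two-sided permutation test, the smallest that 3 against 3 allow. Adjusted over the 10 genes by Benjamini-Hochberg, the permutation p was 0.5 for both. Pou5f1 differed by -0.39 (unadjusted exact permutation p = 0.2) and Zfp42 by 0.16 (unadjusted exact permutation p = 0.4). With Ddx4 (the RNA helicase VASA) alone as the divisor, all 10 differences were negative, with a median of -0.54, but no gene separated the groups. Ddx4 itself had 213, 191 and 268 CPM in controls and 246, 251 and 224 CPM in exposed ovaries.

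**Figure D4:**
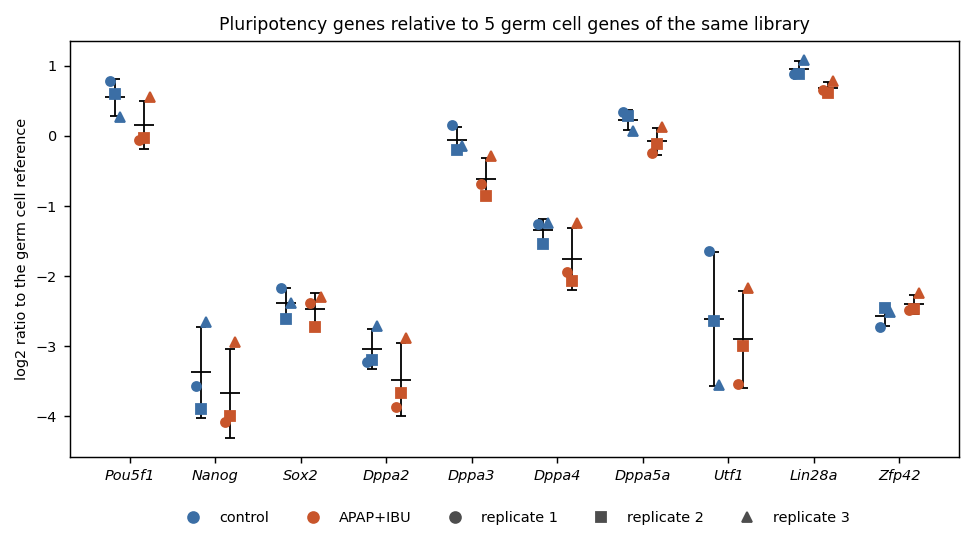
Log2 ratio of each gene to the geometric mean of 5 germ cell genes in the same library (vertical axis), for controls (blue) and APAP+IBU (orange), with marker shapes for the replicate, bars for the mean and whiskers for the SD (n = 3). For Dppa3 and Lin28a the orange points all lie below the blue ones.

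The wider pluripotency network was read from 2 further lists. Of 20 regulators 19 were tested, 14 had a negative and 5 a positive log2 fold change, the median was -0.16, and none was called or had an unadjusted p under 0.05. At its lower end were 2 Krüppel-like factors, Klf2 with -0.57 (SE 0.39) and Klf4 with -0.44 (SE 0.26), while a further one, Klf5, had -0.12. Klf2 and Klf4 were called lower in replicates 1 and 2 (-1.002, adjusted p = 0.0446, and -0.66, edgeR adjusted p = 0.0453), but with the length and GC correction there they had -0.33 and -0.40 (adjusted p = 0.355 and 0.190) and the calls were lost. Klf2 had 13.8, 8.62 and 4.56 CPM in controls and 4.32, 6.75 and 7.08 CPM in exposed ovaries. At the upper end were the nuclear receptor Nr5a2 (0.23, SE 0.34) and Stat3 (0.10, SE 0.14), the mediator of LIF signalling. In replicates 1 and 2, 4 of the 19 regulators were called lower and 0 higher, beside 12.9% and 14.2% of all tested genes. With the correction 1 was called lower, where 2866 of all 20633 tested genes were called, 1196 of them higher. Of 24 stem cell associated genes 21 were tested, 13 negative and 8 positive, with a median of -0.18 and none called. L1td1, an RNA-binding protein of stem cells, had 15.2, 10.8 and 12.7 CPM in controls and 6.80, 7.90 and 9.32 CPM in exposed ovaries. No exposed library of L1td1 reached a control, and its log2 fold change was -0.69 (SE 0.21, unadjusted p = 0.0104 and edgeR adjusted p = 0.686). Ooep, a gene of the oocyte and early embryo, also lay lower in all exposed libraries, at 2.81 to 3.41 CPM in controls and 1.30 to 2.65 CPM after exposure, and these were the 2 of 21 genes with that pattern, beside 5.92% of all tested genes. The DNA methyltransferase gene Dnmt3b separated the groups the other way, at 20.1 to 23.1 CPM in controls and 23.9 to 24.9 CPM after exposure (log2 fold change 0.18, edgeR adjusted p = 0.700). Tet2, which oxidises methylated cytosine, had 27.6, 34.1 and 64.2 CPM in controls and 72.9, 65.9 and 60.9 CPM in exposed ovaries (log2 fold change 0.67, SE 0.29, adjusted p = 0.692). Tet2 was called higher in replicates 1 and 2 (1.19, adjusted p = 0.00623), and with the correction there its value was 0.54 (adjusted p = 0.0145). The secreted protein gene Spp1 was at 0.61 (SE 0.49) through APAP+IBU replicate 3 alone, with 31.8 CPM against 7.36 to 11.5 CPM elsewhere.

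Other germ cell genes lay on both sides of 0. Of 15 listed, 14 were counted and tested, 5 with a positive and 9 with a negative log2 fold change, a median of -0.044 and none called. The most negative were Dmrt1 (-0.48, SE 0.24), a regulator of germ cell differentiation, and Tfap2c (-0.40, SE 0.36), a factor of germ cell specification. Dmrt1 was called lower in replicates 1 and 2 (-0.79, edgeR adjusted p = 0.0227). The most positive were Rnf17 (0.38, SE 0.20) and Dazl (0.35, SE 0.19), which were called higher in replicates 1 and 2 (0.74 and 0.68, adjusted p = 0.00623 and 0.00632). The 5 divisor genes had calls in both directions in that fit, with Dnd1 at -1.07 (adjusted p = 0.0386) and Ddx4 at 0.32 (adjusted p = 0.0429), while Tdrd5 (-0.44, adjusted p = 0.104), Mael (0.047) and Piwil2 (0.090) were not called. With the length and GC correction in these 4 libraries, 0 of the 14 germ cell genes and 0 of the 5 divisor genes were called in either direction. The corrected values were -0.53 for Dmrt1 (adjusted p = 0.0715), 0.23 for Rnf17 (0.189), 0.11 for Dazl (0.518), -0.77 for Dnd1 (0.094) and 0.21 for Ddx4 (0.206). Over 6 libraries their log2 fold changes were -0.34 for Dnd1, 0.10 for Ddx4, -0.29 for Tdrd5, -0.028 for Mael and -0.013 for Piwil2.

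Genes of meiotic entry and of the meiotic prophase after it stood mostly on the other side of 0 in the same libraries. The list mixes both kinds, so its median does not measure entry into meiosis. Of 20 listed and tested, 16 had a positive and 4 a negative log2 fold change over the 6 libraries, with a median of 0.53, and none was called while 5 had an unadjusted p under 0.05, all higher. In replicates 1 and 2, 14 were called higher and 2 lower, beside 14.2% and 12.9% of all tested genes. The 2 lower ones were Stra8 (-0.41, edgeR adjusted p = 0.0495), which starts the meiotic programme, and the meiotic cohesin Rec8 (-0.63, adjusted p = 0.00945). The length and GC correction left 11 called higher and 0 lower, where 1196 of all 20633 tested genes were called higher. Stra8 was then at -0.10 (edgeR adjusted p = 0.607) and Rec8 at -0.28 (adjusted p = 0.0735). Sycp2, an axial element gene, had 18, 35.2 and 34 CPM in controls and 95.1, 97.4 and 31.8 CPM in exposed ovaries (log2 fold change 1.36, SE 0.43, adjusted p = 0.692). The summed level of the 20 meiotic genes was 1770, 1860 and 1700 CPM in the controls and 2190, 2850 and 1440 CPM in the exposed libraries. The 2 libraries with the most meiotic RNA were thus those with the least RNA of the pluripotency genes, and APAP+IBU replicate 3 had the least meiotic RNA and the second highest pluripotency sum. Over 6 libraries Stra8 was at -0.42 (SE 0.25) and Rec8 at -0.41 (SE 0.22), each with an edgeR adjusted p of 0.692.

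**Figure D5:**
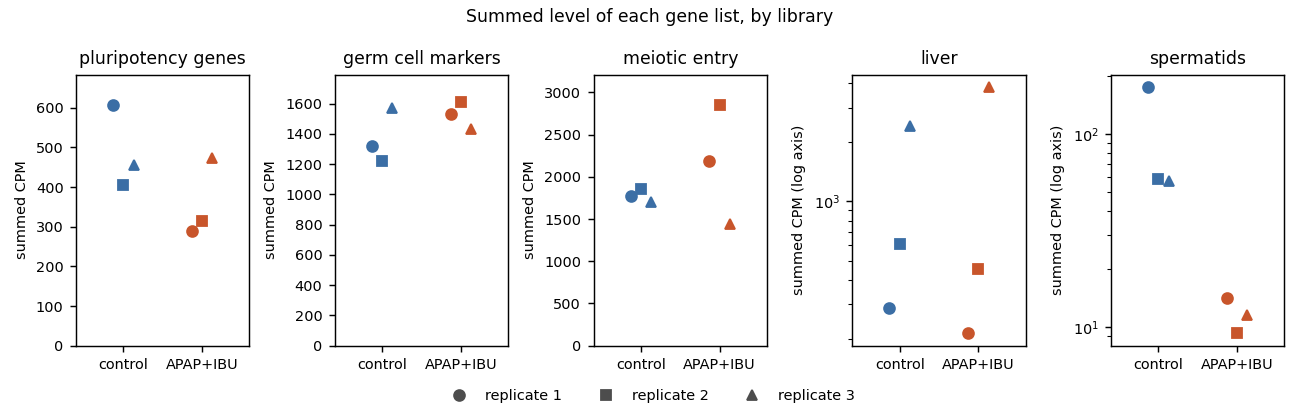
Summed CPM of the 10 pluripotency genes, 14 germ cell markers, 20 meiotic genes, 20 liver genes and 16 spermatid genes (vertical axes, the last 2 on a log scale) in each library, by group and with marker shapes for the replicate. APAP+IBU replicates 1 and 2 are lowest for the pluripotency genes and highest for the meiotic genes, both replicate 3 libraries are highest for liver, and all controls exceed all exposed libraries for spermatid genes.

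The genes whose pattern over the 6 libraries was most like that of the 10 were sought among 16052 others with a mean of at least 1 CPM. The measure was Pearson's r between the log2 CPM of a gene and the mean standardised log2 CPM of the 10. The 5 highest were Gm5864 (0.988), Foxh1 (0.987), Nfatc1 (0.987), Sall4 (0.985) and Pacsin1 (0.984), and 250 genes exceeded 0.9. Sall4, a zinc finger factor of stem cells and germ cells and one of the 20 regulators, had 71.5, 40.0 and 46.5 CPM in controls and 25.5, 32.7 and 64.4 CPM in exposed ovaries. Foxh1, which transmits Nodal and activin signals, had 18.9, 10.1 and 12.7 CPM in controls and 6.84, 9.00 and 16.1 CPM in exposed ovaries. These values describe 6 libraries that also differ in group, depth and tissue composition, and the part of each in the correlations was not tested.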

How the data were processed

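RNA-seq counts of 3 control and 3 APAP+IBU ovary pools were analysed. Per the labels and the methods, the authors mapped reads of stranded polyadenylated libraries to mm10 with TopHat2 2.0.14 and Bowtie2 2.1.0, and deposited raw HTSeq 0.6.1 counts on Ensembl genes without normalisation. Groups came from the exposure label and replicate numbers from the titles.

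GENCODE M21 (GRCm38, the mm10 assembly) supplied symbols, positions, lengths and GC content, and named 48349 of the 48709 genes. Raw counts were tested with edgeR 4.0.16 (limma 3.58.1, R 4.3.3): expression filter (20167 genes kept), TMM, quasi-likelihood test, Benjamini-Hochberg adjustment, threshold 0.05. Ratios used 0.5 added counts, and log2 CPM a prior count of 1. Near-identical transcripts were found with blastn 2.17.0. The fits were tested on simulated counts with the same dispersion for every gene and no difference in tissue composition between libraries. The simulation therefore does not show how the fits perform on libraries as uneven as these. P-values measure the spread between pools.

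The 10 genes, all lists and the fit to replicates 1 and 2 were chosen with earlier results of these data known, and Foxl2, Sox10, Klf5 and Dnmt3b were named after their values were seen. Named were the 10 genes and, in each of 4 lists, the 2 most positive and 2 most negative tested genes with a mean of at least 1 CPM, with Ddx4, Stra8, the 5 divisor genes, Afp and Smcp. One gene that this rule names is not reported here. Alternatives were DESeq2 1.42.0 with and without its beta prior, other scalings and low-count filters, the replicate block, a loess correction for length and GC (span 0.3, known for 20103 tested genes), replicates 1 and 2 only, and leaving out each library. Libraries of one group differed by a chi-square per degree of freedom of 17.2 to 143, so none was a duplicate.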

Additional observations from a re-analysis of the deposited data

How the results depend on the processing

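Deviations from the group means correlated by -0.07, -0.015 and -0.044 between control and exposed libraries numbered 1, 2 and 3, so the numbers pair no samples. The genes called over all 6 libraries went from 0 to 235 with DESeq2 without shrinkage, 191 with its beta prior, 120 with no filter on low counts, 2 with the replicate block, 26 when it was joined to a correction for length and GC, 5607 with replicates 1 and 2 only, 2866 with these and the correction, and 0 to 1064 with one library left out, the highest without control replicate 3. The pluripotency genes called went from 0 to 7 with replicates 1 and 2 only and 2 there with the correction. They stayed at 0 under the other alternatives, the replicate block included. Their median log2 fold change was negative throughout, from -0.88 (without APAP+IBU replicate 3) to -0.26 (without APAP+IBU replicate 1) with one library left out. The median difference from the germ cell divisor ran from -0.62 (without APAP+IBU replicate 3) to -0.23 (without APAP+IBU replicate 1) with one library left out, and was -0.53 with replicates 1 and 2, an alternative chosen after seeing the data. The cause of these changes was not tested.

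Pou5f1, Dppa2, Dppa3, Dppa4, Dppa5a and Lin28a were negative in all 18 alternatives, but with one library left out their log2 fold changes ran from -0.85 to -0.23, -0.969 to -0.24, -0.964 to -0.404, -0.908 to -0.304, -0.645 to -0.236 and -0.548 to -0.31. The lowest was always without APAP+IBU replicate 3, and the highest without control replicate 1 except for Dppa2 and Dppa4 (without APAP+IBU replicate 1). Those of other genes ran from -0.996 to 0.0221 for Nanog, from -0.419 to 0.028 for Sox2, from -1.12 to 0.311 for Utf1, from -0.137 to 0.162 for Zfp42, from -0.307 to 0.957 for Spp1, from -0.000707 to 0.253 for Ddx4, from -0.897 to 0.132 for Dnd1, from -0.197 to 0.0652 for Mael, from -0.0985 to 0.0731 for Piwil2 and from -1.61 to 1.04 for Afp. Other changes of sign were -0.079 for Zfp42, -0.213 for Spp1, 0.047 for Mael, 0.0896 for Piwil2 and -0.711 for Afp with replicates 1 and 2. With length and GC correction there they were -0.11 for Stat3, -0.161 for Spp1, 0.157 for Mael, 0.00786 for Piwil2 and -0.739 for Afp. With the correction over 6 libraries they were -0.00015 for Stat3 and 0.045 for Mael. Total counts gave 0.0083 for Mael and 0.0204 for Piwil2. The replicate block gave -0.241 for Afp, and with the correction -0.243 for Afp and 0.0247 for Mael. None of these genes was called over 6 libraries. With 3 libraries a group, the interval of a gene's log2 fold change sets the limit on what could be seen.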
